A study of Homo sapiens with 18 samples.

Results

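NRF2, the product of NFE2L2, is the transcription factor that switches on enzymes against oxidative and electrophilic stress. KEAP1 holds it in the cytoplasm and passes it to a ubiquitin ligase, and electrophiles or a competing partner of KEAP1 set it free to bind antioxidant response elements together with small MAF proteins. It is controlled mainly as a protein, which these libraries do not measure. Its targets supply glutathione, reduce thioredoxin and peroxiredoxins, detoxify quinones, degrade heme and store iron. The 9 genes described here are NFE2L2 itself and 8 of its best known targets, HMOX1, SRXN1, TXNRD1, OSGIN1, FTH1, NQO1, GCLM and GCLC. They were chosen by symbol, with earlier results of these data known, from the 23368 gene rows of the count tables. Of these rows, 21709 had a count in at least 1 library. All 9 genes were present and passed the filter on low values in every comparison.

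RNA was sequenced from SJSA-1, an osteosarcoma cell line with amplified MDM2 and CDK4, in 6 groups of 3 libraries each. The groups were DMSO as the control, Nutlin (the MDM2 antagonist that frees p53) at 20 µM for 6 h, PD0332991 (Palbociclib, an inhibitor of CDK4 and CDK6) at 10 µM for 24 h and then removed (PD24), PD0332991 at 10 µM for 30 h without a break (PD30), and Nutlin for 6 h on top of either schedule (N+PD24 and N+PD30). The labels give the doses and hours, and the removal is taken from the study's treatment scheme, which writes 2 Nutlin doses where the labels give one. The study calls the triplicates biological and the labels do not describe the cultures, so the p-values measure the spread between these libraries of 1 cell line. Whether fresh medium was also given to the other groups when PD0332991 was taken off is not stated in the sources used here, so removal of the drug and a change of medium cannot be told apart.

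Library totals ranged from 12704845 counts in replicate 1 of N+PD30 to 40231041 in a PD24 library (median 29608936), and no member had fewer than 156 reads in any library. COL1A1 and SPARC, matrix genes of the osteoblast lineage, were abundant (at least 1122 and 1398 CPM, the count scaled to the library total), whereas BGLAP and IBSP of the same lineage reached at most 0.221 and 0.131 CPM. MDM2 and CDK4 lay at or above 1151 and 1701 CPM, and the leukocyte gene PTPRC stayed at or below 0.492 CPM. CDKN1A and MDM2, the p53 targets used as a check, were higher with Nutlin (log2 fold changes 4.56 and 3.27 against DMSO). The summed level of the proliferation genes MKI67, CCNA2, CCNE2 and MCM2 was 1117 to 1259 CPM in DMSO, 47.7 to 55.2 CPM in PD24 and 32.5 to 37.3 CPM in PD30.

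The proximal promoters are shown because 2 pairs of members moved together below, SRXN1 with TXNRD1 and NQO1 with GCLM. RefSeq promoter entries (build GRCh38.p14, 250 bases before and 50 after the start of transcription) were found for 7 of the 9 members, and none was used for HMOX1 and FTH1. Each of the 9 entries occurred exactly once in GRCh37, whose positions are given. The core of the antioxidant response element was searched as TGACNNNGC on both strands, and capitals mark a match. It appears as its reverse complement where it lies on the other strand. Each line runs 5′ to 3′ on the strand of the gene, from 250 bases before the start to 10 bases after it.
GCLM, chr1:94374977-94375236, minus strand: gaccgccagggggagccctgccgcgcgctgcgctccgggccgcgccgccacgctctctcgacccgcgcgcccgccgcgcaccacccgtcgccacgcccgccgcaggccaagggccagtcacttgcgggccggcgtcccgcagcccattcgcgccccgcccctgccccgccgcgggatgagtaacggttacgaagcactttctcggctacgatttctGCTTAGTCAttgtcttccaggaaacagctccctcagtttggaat
TXNRD1, upstream start, chr12:104609307-104609566, plus strand: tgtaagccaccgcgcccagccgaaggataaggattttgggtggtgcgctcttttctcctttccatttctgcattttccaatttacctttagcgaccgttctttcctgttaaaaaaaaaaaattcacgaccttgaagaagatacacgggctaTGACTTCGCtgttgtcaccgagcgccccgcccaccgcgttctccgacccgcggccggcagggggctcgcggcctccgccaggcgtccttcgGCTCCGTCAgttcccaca
TXNRD1, downstream start, chr12:104680560-104680819, plus strand: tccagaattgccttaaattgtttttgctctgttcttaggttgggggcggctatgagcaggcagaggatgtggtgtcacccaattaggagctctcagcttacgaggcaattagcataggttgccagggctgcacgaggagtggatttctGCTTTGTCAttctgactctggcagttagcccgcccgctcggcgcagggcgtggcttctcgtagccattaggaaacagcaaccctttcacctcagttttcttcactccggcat
NQO1, chr16:69760454-69760713, minus strand: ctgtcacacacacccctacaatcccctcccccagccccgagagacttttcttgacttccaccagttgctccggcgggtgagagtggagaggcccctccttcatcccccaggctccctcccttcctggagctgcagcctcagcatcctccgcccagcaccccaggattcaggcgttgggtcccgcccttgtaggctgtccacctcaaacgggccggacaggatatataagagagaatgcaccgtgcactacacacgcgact
SRXN1, chr20:633835-634094, minus strand: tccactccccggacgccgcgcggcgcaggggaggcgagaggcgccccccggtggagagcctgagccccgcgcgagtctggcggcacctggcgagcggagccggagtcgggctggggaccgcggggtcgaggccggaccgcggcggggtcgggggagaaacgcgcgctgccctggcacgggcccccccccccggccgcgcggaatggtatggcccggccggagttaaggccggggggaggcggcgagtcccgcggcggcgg

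GCLM held 1 match, TGACTAAGC, which began 34 bases before the start and read on the opposite strand. TXNRD1 held TGACTTCGC from 99 bases before its upstream start and TGACGGAGC across that start on the opposite strand. Its downstream start was preceded by TGACAAAGC from 102 bases before, on the opposite strand. None of these 4 matches overlapped TGACTCA or TGAGTCA, the AP-1 motif. The windows of NFE2L2, NQO1, GCLC, SRXN1 and OSGIN1 held none of these letters. Of all 35116 promoters listed, each of the same length, 4687 (13.3%) held the core. Of each pair of genes that moved together, 1 therefore had the core in this window and the other did not. The pairs were named after their values were seen. HMOX1, which rose together with SRXN1 and TXNRD1 after removal of the drug, had no promoter to search. Sequence further from the start was not searched.

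NFE2L2, on the minus strand of chromosome 2 (GRCh37, 178083395 to 178257484, overlapped by HNRNPA3 and AGPS on the opposite strand and by 8 noncoding genes or pseudogenes), was lowest in the 6 libraries in which PD0332991 had been removed. In DMSO its level was 289, 299 and 267 CPM in replicates 1 to 3, and with Nutlin it was 366, 327 and 260 CPM. The PD24 libraries lay at 164, 164 and 200.02 CPM and the N+PD24 libraries at 197, 202 and 182 CPM. With the drug kept on, NFE2L2 measured 322, 296 and 345 CPM in PD30 and 233, 246 and 273 CPM in N+PD30. Every library with the drug removed thus lay below every other library. As the libraries are of bulk RNA, fewer cells expressing a gene and less RNA per cell cannot be told apart. NFE2L2 fell in PD24 against DMSO (log2 fold change -0.67 ± 0.10 SE, adjusted p = 0.000954, edgeR's quasi-likelihood test). In N+PD24 it fell by a like amount against Nutlin (-0.70 ± 0.13, adjusted p = 0.00367, limma), a comparison that shares no library with the first. Continuous drug gave 0.16 ± 0.08 against DMSO (edgeR, adjusted p = 0.146) and -0.39 ± 0.15 with Nutlin (edgeR, adjusted p = 0.0505), neither of which passed. Without Nutlin replicate 3 the last value was -0.53 and passed (edgeR, adjusted p = 0.00923).

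**Figure D1:**
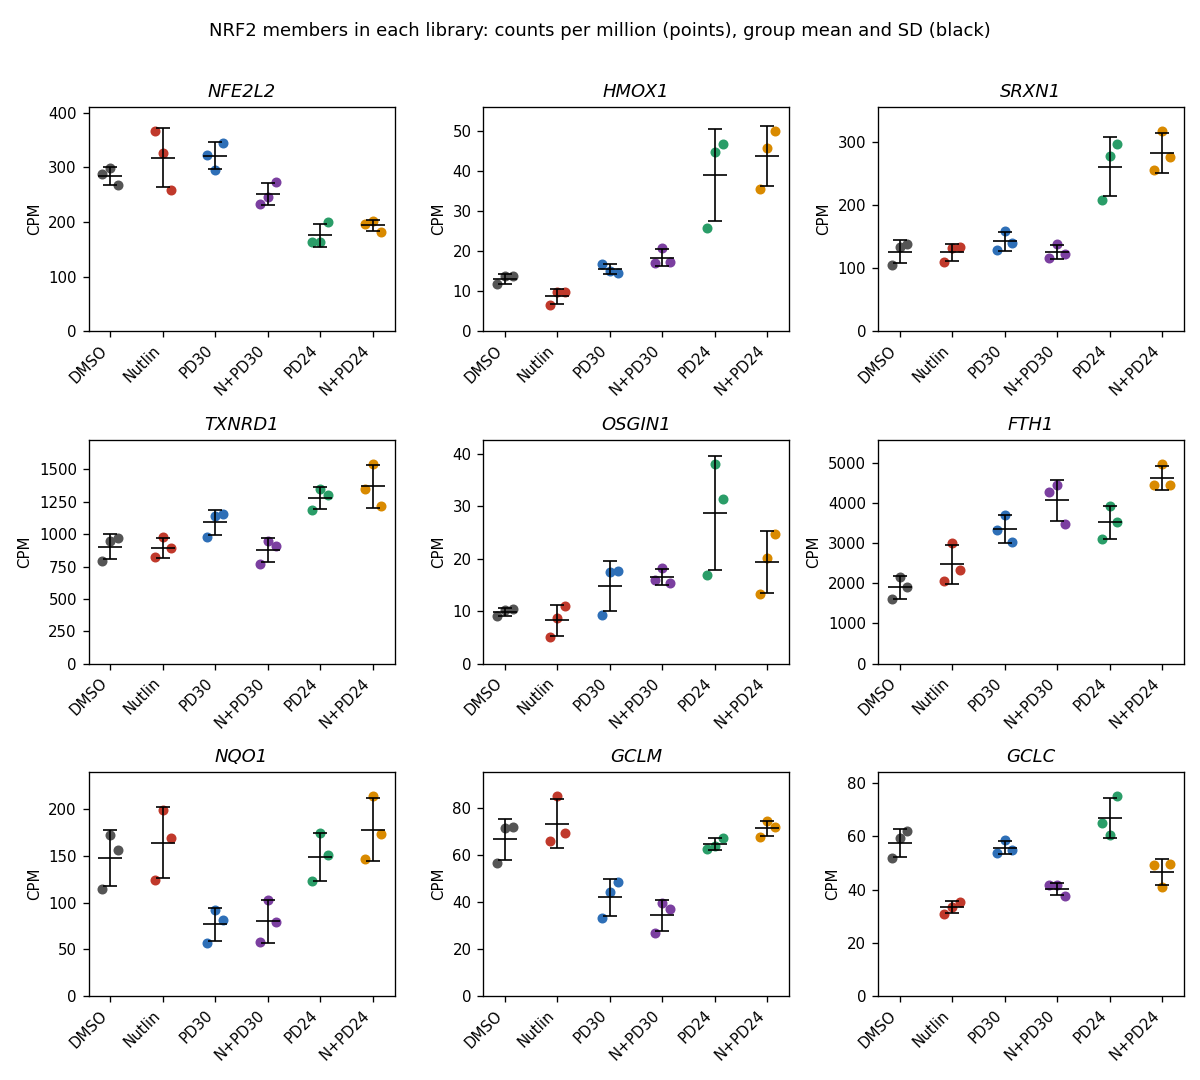
Level of the 9 members in CPM (vertical axes, from 0) in the 6 groups (horizontal axes), with 1 point per library, replicates 1 to 3 from left to right, and the group mean with its SD in black (n = 3). HMOX1, SRXN1 and TXNRD1 are highest and NFE2L2 is lowest in PD24 and N+PD24, NQO1 and GCLM are lowest in PD30 and N+PD30, and GCLC is lowest in Nutlin.

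Of the targets, HMOX1 showed the largest difference. It encodes heme oxygenase, which breaks heme down to biliverdin, carbon monoxide and iron, and lies on the plus strand of chromosome 22 (35776354 to 35790207) with no overlapping annotated gene. Its level was 11.7, 13.8 and 13.7 CPM in DMSO and 6.49, 9.72 and 9.80 CPM in Nutlin. It reached 25.7, 44.6 and 46.6 CPM in PD24 and 35.5, 45.8 and 49.9 CPM in N+PD24. In PD30 it was 16.8, 15.1 and 14.6 CPM, and in N+PD30 17, 20.9 and 17.2 CPM. All libraries with the drug removed lay above all others. HMOX1 rose 2.98-fold in PD24 against DMSO by group means (log2 fold change 1.60 ± 0.22, adjusted p = 0.000564, edgeR) and 5.04-fold in N+PD24 against Nutlin (2.22 ± 0.18 on log2 of CPM + 1, adjusted p = 4.80e-05, limma). With continuous drug it rose 2.12-fold in N+PD30 against Nutlin (1.05 ± 0.19, adjusted p = 0.00107, edgeR), while PD30 against DMSO gave 0.23 ± 0.12 and did not pass (edgeR, adjusted p = 0.143).

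SRXN1, whose product sulfiredoxin restores overoxidized peroxiredoxins, was also highest after removal of the drug (chromosome 20, minus strand, 627259 to 633844). It measured 105, 134 and 139 CPM in DMSO and 110, 132 and 134 CPM in Nutlin. After removal of the drug it was 208, 278 and 298 CPM in PD24 and 256, 317 and 276 CPM in N+PD24. Under continuous drug it was 129, 158 and 140.5 CPM in PD30 and 116, 138 and 122 CPM in N+PD30. The libraries with and without removal did not overlap. SRXN1 rose 2.07-fold in PD24 (log2 fold change 1.07 ± 0.16, adjusted p = 0.000803, edgeR) and 2.26-fold in N+PD24 (1.17 ± 0.12, adjusted p = 0.000148, limma), while PD30 and N+PD30 gave log2 fold changes of 0.16 ± 0.12 and -0.03 ± 0.13 that did not pass (edgeR, adjusted p = 0.304 and 0.853). Another protein-coding gene model overlaps SRXN1 on the same strand, so part of its reads may not have been counted for it.

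TXNRD1 encodes the cytosolic thioredoxin reductase, which uses NADPH to reduce thioredoxin (chromosome 12, plus strand, 104609557 to 104744085). Its level was 790.1, 950.2 and 972 CPM in DMSO and 821, 975 and 893 CPM in Nutlin. It was 1184, 1345 and 1304 CPM in PD24 and 1348, 1545 and 1215 CPM in N+PD24. PD30 gave 978, 1139 and 1154 CPM, and N+PD30 gave 772, 949 and 908 CPM. The rise was 1.41-fold in PD24 (log2 fold change 0.52 ± 0.11, adjusted p = 0.00483, edgeR) and 1.53-fold in N+PD24 (0.61 ± 0.11, adjusted p = 0.00394, limma). In PD30 it was 0.26 ± 0.10 (edgeR, adjusted p = 0.0650), and without PD30 replicate 1 it was 0.33 and passed (edgeR, adjusted p = 0.0385). With all libraries kept and replicate number as a block it was 0.26 and passed (edgeR, adjusted p = 0.00848). The annotation places EID3 and a pseudogene over TXNRD1 on the same strand and a long noncoding RNA on the other.

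OSGIN1, a growth inhibitor induced by oxidative stress, was highest in PD24 and spread widely there (chromosome 16, plus strand, 83964916 to 83999937, overlapping MLYCD on the same strand). DMSO libraries lay at 9.06, 10.2 and 10.5 CPM and Nutlin libraries at 5.11, 8.66 and 10.98 CPM. It measured 16.8, 38.2 and 31.4 CPM in PD24 and 13.2, 20.2 and 24.8 CPM in N+PD24. PD30 gave 9.26, 17.5 and 17.7 CPM and N+PD30 gave 16.0, 18.2 and 15.3 CPM. OSGIN1 rose in PD24 (log2 fold change 1.56 ± 0.27, adjusted p = 0.00197, edgeR), in N+PD24 (1.15 ± 0.28, adjusted p = 0.0135, limma) and in N+PD30 (0.97 ± 0.24, adjusted p = 0.00623, edgeR), each against the group without PD0332991. In PD30 the difference from DMSO was 0.57 ± 0.23 (edgeR, adjusted p = 0.0634). Replicate 1 of PD30 lay within the DMSO range, and without it the difference was 0.81 and passed (edgeR, adjusted p = 0.00163). Replicate 1 was also the lowest in DMSO. With all libraries kept and replicate number as a block, the difference was 0.52 and passed (edgeR, adjusted p = 0.0253).

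FTH1, the ferritin heavy chain that oxidizes and stores iron, was raised by PD0332991 on either schedule (chromosome 11, minus strand, 61727190 to 61735106). Its level was 1608, 2159 and 1917 CPM in DMSO and 2067, 3007 and 2326 CPM in Nutlin. PD24 gave 3092, 3911 and 3532 CPM and PD30 gave 3324, 3710 and 3030 CPM. When combined with Nutlin it was 4439, 4977 and 4440.3 CPM in N+PD24 and 4259, 4445 and 3478 CPM in N+PD30. All libraries with PD0332991 lay above those of the same Nutlin state without it. FTH1 rose in PD24 (0.91 ± 0.13, adjusted p = 0.000859, edgeR), PD30 (0.81 ± 0.12, adjusted p = 0.000497, edgeR), N+PD24 (0.92 ± 0.14, adjusted p = 0.00150, limma) and N+PD30 (0.68 ± 0.18, adjusted p = 0.00813, edgeR). The annotation names 25 FTH1 pseudogenes, with which its reads could be shared, and BEST1 overlaps it on the opposite strand.

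NQO1 and GCLM showed another pattern, with low levels while PD0332991 was present and control levels after its removal. NQO1 reduces quinones with 2 electrons and so avoids reactive semiquinones (chromosome 16, minus strand, 69740899 to 69760571, overlapped by a small nucleolar RNA gene on its strand and a long noncoding RNA on the other). It measured 115, 173 and 156 CPM in DMSO and 124, 199.6 and 169 CPM in Nutlin. It fell to 57.1, 92.0 and 81.3 CPM in PD30 and to 57.5, 103 and 78.9 CPM in N+PD30. The PD24 libraries lay at 123, 174 and 151 CPM and the N+PD24 libraries at 147, 214 and 173 CPM. In both Nutlin states every library with continuous drug was below every library without the drug. PD30 fell to 0.519 of the DMSO mean (log2 fold change -0.96 ± 0.19, adjusted p = 0.00265, edgeR), and N+PD30 to 0.486 of the Nutlin mean (-1.08 ± 0.22, adjusted p = 0.00204, edgeR). The values after removal were 0.04 ± 0.18 without Nutlin (edgeR, adjusted p = 0.882) and 0.12 ± 0.19 with it (limma, adjusted p = 0.647).

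GCLM, the modifier subunit of glutamate-cysteine ligase, the enzyme of the first step of glutathione synthesis, behaved like NQO1 (chromosome 1, minus strand, 94350755 to 94375012, no overlapping gene). DMSO gave 56.6, 71.5 and 71.6 CPM and Nutlin 65.7, 84.9 and 69.1 CPM. Continuous drug gave 33.3, 44.2 and 48.5 CPM in PD30 and 26.9, 39.4 and 36.8 CPM in N+PD30. After removal the level was 62.4, 63.8 and 67.3 CPM in PD24 and 67.7, 74.2 and 71.6 CPM in N+PD24. GCLM fell in PD30 (log2 fold change -0.68 ± 0.15, adjusted p = 0.00432, edgeR) and in N+PD30 (-1.13 ± 0.16, adjusted p = 0.000270, edgeR). The differences after removal were -0.02 ± 0.11 and -0.03 ± 0.12, and neither passed (edgeR, adjusted p = 0.891, and limma, adjusted p = 0.850).

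GCLC, the catalytic subunit of the same ligase, did not follow GCLM (chromosome 6, minus strand, 53362139 to 53481768, with 3 overlapping long noncoding RNAs, 1 of them on its strand). Its level was 51.7, 59.3 and 62.0 CPM in DMSO and 31.0, 33.6 and 35.4 CPM in Nutlin. Continuous PD0332991 gave 53.8, 58.5 and 55.0 CPM alone and 41.6, 41.8 and 37.5 CPM with Nutlin. The PD24 libraries lay at 65.0, 60.5 and 75.2 CPM and the N+PD24 libraries at 49.3, 41.0 and 49.5 CPM. All 9 libraries with Nutlin were below all 9 without it. GCLC rose in N+PD24 against Nutlin (0.47 ± 0.11, adjusted p = 0.0132, limma). The differences of -0.06 ± 0.09 in PD30, 0.24 ± 0.13 in N+PD30 and 0.24 ± 0.11 in PD24 did not pass (edgeR, adjusted p = 0.620, 0.143 and 0.126). The change of GCLC with Nutlin was -0.71 ± 0.10 without PD0332991 and -0.37 ± 0.10 in its continuous presence, and the interaction term was 0.34 ± 0.14 (edgeR, adjusted p = 0.116). In the limma fit for removal it was -0.77 ± 0.11 without the drug and -0.51 ± 0.11 after its removal, with an interaction term of 0.26 ± 0.16 (limma, adjusted p = 0.601).

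**Figure D2:**
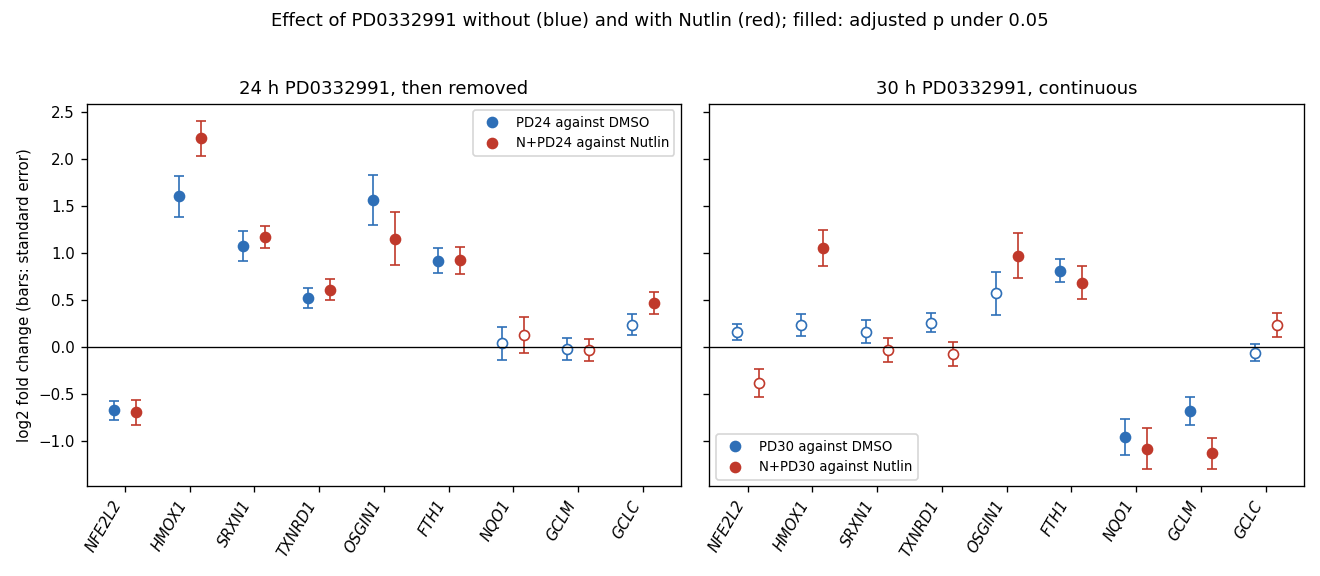
Log2 fold change (vertical axis) of each member with PD0332991, against DMSO (blue) and, in the presence of Nutlin, against Nutlin (red), with bars for the standard error. The left panel gives 24 h of drug followed by removal and the right panel 30 h of drug, and filled points have an adjusted p under 0.05. HMOX1, SRXN1, TXNRD1 and OSGIN1 are raised in both colours on the left, and NQO1 and GCLM are lowered in both colours on the right.

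Counted over the members, PD24 against DMSO had 5 of 9 higher and 1 lower, where 38.3% of the 15094 genes tested passed (17.5% higher and 20.8% lower). N+PD24 against Nutlin had 6 higher and 1 lower, beside 37% of 13953 genes (14.9% higher, 22.1% lower). The 6 members called without Nutlin were all called in the same direction with it, 5 higher (FTH1, HMOX1, OSGIN1, SRXN1, TXNRD1) and 1 lower (NFE2L2). The median log2 fold change of the members was 0.52 and 0.61, against 0.02 and -0.05 over all genes tested. As the members were chosen with earlier results known, these shares and medians are a description and not a test. With replicate number as a block the genes called in N+PD24 against Nutlin went from 5169 to 8008, and the number of members called stayed at 7.

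Fewer members moved one way under continuous drug. The PD30 and PD24 comparisons share their controls, so their values are given side by side. PD30 against DMSO had 1 member higher and 2 lower, in a comparison where 48.3% of 15125 genes passed (22.9% higher and 25.4% lower), so the count of 3 of 9 was below the background. Without PD30 replicate 1 it was 5, and with replicate number as a block and all libraries kept it was also 5. N+PD30 against Nutlin had 3 higher and 2 lower, and the background was 49% of 15721 genes (24.3% higher, 24.7% lower), near the members' share. FTH1 was higher and NQO1 and GCLM were lower in both, which share no library. The members' medians were 0.16 and -0.03, and those of all genes 0.00202 and 0.00214.

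Nutlin alone called 3 of the 9 members against DMSO, 1 higher and 2 lower, whereas 54.6% of the 15766 genes tested were called (26.6% higher and 28% lower). GCLC fell to 0.579 of the DMSO mean (log2 fold change -0.66 ± 0.10, adjusted p = 0.000476, edgeR), and this call held in every alternative that used the adjusted p alone (8.22e-07 to 0.00348). HMOX1 fell (-0.47 ± 0.17, adjusted p = 0.0438, edgeR), a call that was lost without DMSO replicate 2 (-0.43, adjusted p = 0.121), DMSO replicate 3 (-0.44, adjusted p = 0.0912) or Nutlin replicate 1 (-0.30, adjusted p = 0.0914). FTH1 rose (0.51 ± 0.16, adjusted p = 0.02003, edgeR), which was lost without DMSO replicate 1 (0.40, adjusted p = 0.0708) or Nutlin replicate 2 (0.33, adjusted p = 0.0828). NFE2L2 gave 0.29 ± 0.13 (edgeR, adjusted p = 0.0893) and was called without Nutlin replicate 3 (0.43, edgeR, adjusted p = 0.00663). NQO1 gave 0.28 ± 0.19 (edgeR, adjusted p = 0.228) and was called without Nutlin replicate 1 (0.44, edgeR, adjusted p = 0.0497). With all libraries kept and replicate number as a block NQO1 was called too (0.27, edgeR, adjusted p = 0.0327). GCLM (0.27), TXNRD1 (0.11), SRXN1 (0.11) and OSGIN1 (-0.14) did not pass.

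Whether the response to Nutlin differed with PD0332991 was tested by the interaction term over 12 libraries, since the question of the study is how CDK4 inhibition changes the response to an MDM2 antagonist. With continuous drug, 1 of 9 members was called, beside 19.8% of 16113 genes. HMOX1 moved by -0.51 ± 0.16 with Nutlin in the absence of the drug and by 0.35 ± 0.16 in its presence, a difference of 0.86 ± 0.22 (edgeR, adjusted p = 0.0154). NFE2L2 moved by 0.24 ± 0.12 and by -0.26 ± 0.12, a difference of -0.50 ± 0.18 that missed the threshold (edgeR, adjusted p = 0.0611) and passed without Nutlin replicate 3 (-0.66, adjusted p = 0.00541). The largest difference among the other members was that of OSGIN1 (0.44 ± 0.37, edgeR, adjusted p = 0.440). With the drug removed, limma and edgeR on recovered reads called none of the members, 1 of them had in limma an unadjusted p under 0.05, and 1.45% of 14308 genes were called. That member was HMOX1, with a difference of 0.75 ± 0.31 (limma, adjusted p = 0.345), and it was called with replicate number as a block (limma, adjusted p = 0.0342). Same-numbered libraries deviated together between N+PD24 and Nutlin. Between Nutlin and DMSO replicate 1 did not (correlation -0.274), whereas replicates 2 and 3 gave 0.311 and 0.168. The main fit therefore did not pair the 12 libraries, and whether they were paired is not known.

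Removal was then compared with continuous treatment directly. PD30 against PD24 called 6 members, 1 higher and 5 lower, where 25.2% of 15171 genes were called (12.2% higher and 12.9% lower). NFE2L2 was higher under continuous drug (0.83 ± 0.11, adjusted p = 0.000968, edgeR). HMOX1 was lower (-1.37 ± 0.21, adjusted p = 0.00231, edgeR), as were SRXN1 (-0.91 ± 0.15, adjusted p = 0.00290, edgeR), NQO1 (-0.99 ± 0.19, adjusted p = 0.00629, edgeR) and GCLM (-0.65 ± 0.14, adjusted p = 0.00996, edgeR). OSGIN1 passed narrowly (-0.99 ± 0.32, adjusted p = 0.0481, edgeR) and did not pass without PD24 replicates 2 or 3 (adjusted p = 0.129 and 0.0788) or without PD30 replicates 1, 2 or 3 (adjusted p = 0.123, 0.0542 and 0.0809). Same-numbered libraries deviated together in this comparison, but the labels do not say that they were paired. With replicate number as a block, an alternative fit, 8 members and 6107 genes were called instead of 6 and 3816. TXNRD1 (-0.27, edgeR, adjusted p = 0.0117) and GCLC (-0.29, edgeR, adjusted p = 0.0313) were added. Without PD30 replicate 1 or 3 the genes called were 2178 and 2520. FTH1 differed by -0.10 ± 0.12 (edgeR, adjusted p = 0.578).

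In the presence of Nutlin, N+PD30 against N+PD24 also called 1 member higher and 5 lower, beside 34% of 13644 genes (22.5% higher, 11.6% lower). HMOX1 (-1.20 ± 0.16, adjusted p = 0.00101, limma), NQO1 (-1.17 ± 0.21, adjusted p = 0.00373, limma), SRXN1 (-1.16 ± 0.12, adjusted p = 0.000468, limma), GCLM (-1.05 ± 0.15, adjusted p = 0.00147, limma) and TXNRD1 (-0.64 ± 0.13, adjusted p = 0.00601, limma) were lower. NFE2L2 was higher by 0.37 ± 0.11 (limma, adjusted p = 0.0294). That call was lost when any library other than N+PD30 replicate 1 was left out (0.31 to 0.40, limma, adjusted p = 0.0521 to 0.0973), with TMM factors (0.27, limma, adjusted p = 0.0941) and with edgeR on recovered reads (0.25, adjusted p = 0.119). The main scaling placed the median of all genes at 0.12 and 66.0% of calls on the higher side, against 49.5% with edgeR on recovered reads and 55.2% with TMM factors. The NFE2L2 difference relative to that median is accordingly smaller, and those of the 5 lower members larger. Across both Nutlin states, which share no library, 5 members were called alike, with NFE2L2 higher and GCLM, HMOX1, NQO1 and SRXN1 lower under continuous drug. Without N+PD24 replicate 2 or N+PD30 replicate 2, 2655 and 2723 genes were called instead of 4645.

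**Figure D3:**
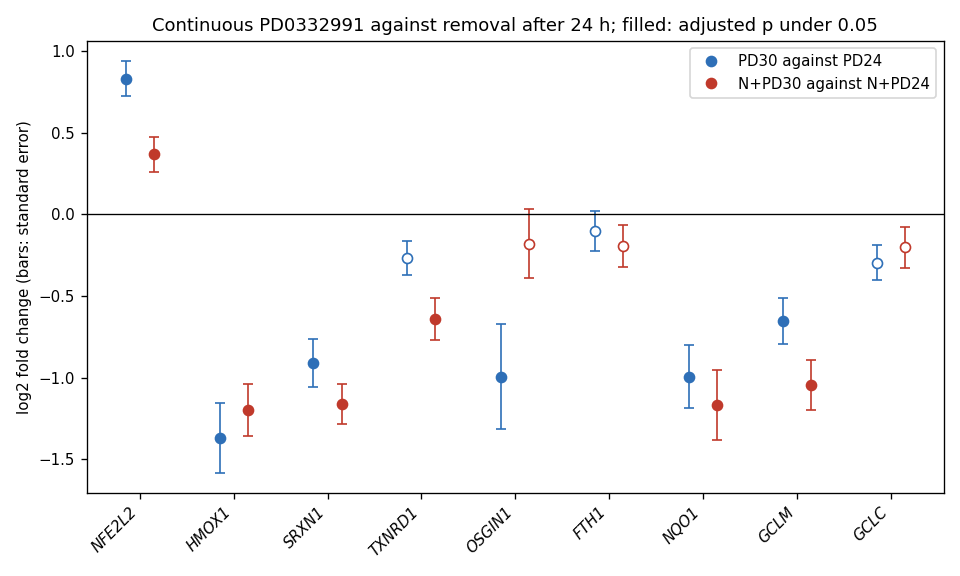
Log2 fold change of each member (vertical axis) under continuous PD0332991 relative to its removal after 24 h, without Nutlin (blue) and with it (red), with bars for the standard error and filled points for an adjusted p under 0.05. NFE2L2 lies above 0 and HMOX1, SRXN1, NQO1 and GCLM lie below 0 in both.

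Of the 4 proliferation genes, CCNE2 (-1.0, edgeR, adjusted p = 0.0234) and MCM2 (-0.84, edgeR, adjusted p = 0.00227) were lower in PD30 than in PD24, and MKI67 (0.39) and CCNA2 (0.51) did not pass, and in N+PD30 against N+PD24 the 3 genes tested gave -0.01 to 0.36 and did not pass (limma). Their part in the members' differences was not tested.

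By transcript length, the members spanned a wide range of abundance. In DMSO, CPM per kilobase of the main transcript was 1575 ± 230 (SD, n = 3) for FTH1, 234 ± 25.7 for TXNRD1, 116 ± 6.62 for NFE2L2, 58.7 ± 11.8 for NQO1 and 49.9 ± 7.21 for SRXN1. It was 15.2 ± 1.40 for GCLC, 13.6 ± 1.77 for GCLM, 8.40 ± 0.777 for HMOX1 and 5.16 ± 0.390 for OSGIN1. The means of NQO1 and SRXN1 differed by less than an SD of NQO1, and those of GCLC and GCLM by less than the SD of GCLM, whereas the other neighbours in this order lay further apart than their SDs. In N+PD24, SRXN1 (112 ± 12.5) stood above NFE2L2 (79.3 ± 4.21) and HMOX1 (28.1 ± 4.78) stood above GCLM (14.6 ± 0.672) and GCLC (12.3 ± 1.28).

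Over the 18 libraries and 14460 genes, the genes most like each member by Pearson's r of log2(CPM + 1) are given as a description, as libraries of a group share their treatment. NQO1 and GCLM were each other's nearest gene (r = 0.942), and ASF1A was near both (0.908 and 0.939), with IL27RA next for NQO1 (0.903) and GLRX3 next for GCLM (0.937). The nearest gene to SRXN1 was SQSTM1 (0.968), which was ahead of C5orf47 (0.942) and TMEM233 (0.938). TXNRD1 was nearest to SRXN1 (0.929), then POPDC3 (0.905) and C6orf115 (0.904), and HMOX1 to ACOT11 (0.938), TMEM233 (0.918) and SRXN1 (0.918). For NFE2L2 they were PPM1E (0.958), KIAA0146 (0.950) and STON1 (0.944), for GCLC GPATCH4 (0.964) and CDK12 (0.951), for OSGIN1 SDCCAG3 (0.929), NCDN (0.912) and LYPLA2 (0.911), and for FTH1 ACP5 (0.956), SCARB1 (0.940) and COPS7A (0.940). No target had NFE2L2 among its nearest 3 genes. The ranking took the highest values of r, so a gene that moved opposite to a member could not be listed.

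Among 13 regulators and partners of NRF2, SQSTM1 followed the removal of the drug. SQSTM1 (p62) is an autophagy receptor that binds KEAP1 and is itself a target of NRF2. It rose in PD24 (log2 fold change 1.34 ± 0.17, adjusted p = 0.000363, edgeR) and in N+PD24 (1.26 ± 0.22, adjusted p = 0.00255, limma). It was lower under continuous drug than after removal, without Nutlin (-1.38 ± 0.17, adjusted p = 0.000825, edgeR) and with it (-1.39 ± 0.15, adjusted p = 0.000468, limma). In PD24 the list had 1 gene called higher and 3 lower, beside 38.3% of all genes called in either direction, and in N+PD24 1 higher and 1 lower, beside 37%. PD30 and N+PD30 each had 6 higher and 4 lower, a larger share of the 13 than the 48.3% and 49% of all genes. Nutlin had 3 higher and 1 lower, below the 54.6% of all genes. PD30 against PD24 had 2 higher and 1 lower and N+PD30 against N+PD24 3 higher and 2 lower, both near the 25.2% and 34% of all genes. KEAP1 itself was not called in any of these comparisons (-0.42 to 0.23). BACH2, a repressor at the same elements, fell in PD24 (-0.76), PD30 (-0.71) and N+PD30 against Nutlin (-1.25), and was lower in N+PD30 than in N+PD24 (-1.22). BACH1, its relative, was higher with continuous drug in PD30 against DMSO (0.71) and N+PD30 against Nutlin (0.73), and higher than after removal in PD30 (0.52) and N+PD30 (0.66). The partner MAFK rose with Nutlin (0.98) and was higher in N+PD30 than in Nutlin (0.71) and N+PD24 (1.18). In N+PD30 against N+PD24 the median of all genes was 0.12, and relative to it the values of BACH1 and MAFK are smaller. NFE2L3, a relative of NRF2, was lower in N+PD24 (-0.91) and N+PD30 (-0.97) than in Nutlin and in PD24 (-0.51) and PD30 (-0.52) than in DMSO, and it rose with Nutlin (0.33). GSK3B, a kinase that marks NRF2 for degradation, was higher in PD30 than in PD24 (0.68) and DMSO (0.56). In N+PD30 against Nutlin, GSK3B gave 0.06 and did not pass (edgeR, adjusted p = 0.737).

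A second list held 35 other NRF2 targets, of which 33 were tested. It too was chosen with earlier results of these data known, so its shares and medians are a description and not a test. After removal 10 were called higher and 1 lower in PD24 and 12 higher and 1 lower in N+PD24. Counted in both directions these shares lay near the 38.3% and 37% of all genes called, and the higher calls stood beside 17.5% and 14.9% of all genes. Of these, 8 were higher in both (ABCC3, EPHX1, HTATIP2, IDH1, ME1, TRIM16, TRIM16L and UGDH) and 1 was lower in both (CBR3). The list's median was 0.27 in each, against 0.02 and -0.05 for all genes. Continuous drug had 8 higher and 2 lower in PD30 and 6 higher and 5 lower in N+PD30, both below the 48.3% and 49% of all genes. Nutlin alone had 14 higher and 3 lower, in both directions together near the 54.6% of all genes. Its higher calls stood beside 26.6% of all genes, and the list's median was 0.24, against 0.03 for all genes.

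Directly between the schedules, 1 other target was higher and 5 were lower in PD30 than in PD24, and N+PD30 against N+PD24 called 8, each of them lower. In both directions together these counts lay below the 25.2% and 34% of all genes called, and the lower calls stood beside 12.9% and 11.6% of all genes. The 11.6% rests on the main scaling, which placed the median of all genes at 0.12. EdgeR on recovered reads called 2506 genes lower instead of 1581, and the list was not counted in that fit. The same 5 were lower in both and are named after their values were seen. They were the ferritin light chain FTL (-0.60 and -0.59), the peroxiredoxin PRDX1 (-0.40 and -0.52), UGDH of glucuronate synthesis (-0.53 and -0.46), and TRIM16 (-0.90 and -0.81) with its near copy TRIM16L (-1.07 and -1.17), whose reads could be shared. IDH1, which makes NADPH in the cytoplasm, was the gene higher in PD30 (0.65).

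The remaining genes named are those of the other targets that were among the 2 highest or 2 lowest called in a comparison. ABCC2, an export pump for glutathione conjugates, rose with Nutlin (2.92 ± 0.17, adjusted p = 1.81e-06, edgeR) and N+PD30 stood below Nutlin (-2.09) and below N+PD24 (-2.10). AKR1B10, an aldo-keto reductase, rose with Nutlin (1.58) and was lower in N+PD30 than in N+PD24 (-0.59). The iron exporter SLC40A1 fell with Nutlin (-0.69) and was higher than in Nutlin in N+PD30 (1.25) and N+PD24 (0.82). CBR3, a carbonyl reductase, was lower in Nutlin (-1.86), PD30 (-2.63) and PD24 (-1.85) against DMSO and in N+PD30 (-1.17) and N+PD24 (-0.50) against Nutlin. The pump ABCC3 was higher in PD30 (1.41), PD24 (1.16) and Nutlin (0.86) against DMSO and in N+PD30 (0.94) and N+PD24 (1.04) against Nutlin. IDH1 was higher in PD30 (1.39) and PD24 (0.74) against DMSO and in N+PD30 (1.21) and N+PD24 (1.16) against Nutlin. TRIM16 was higher in PD24 against DMSO (0.95) and in N+PD24 against Nutlin (1.16), and it fell with Nutlin alone (-0.44).

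**Figure D4:**
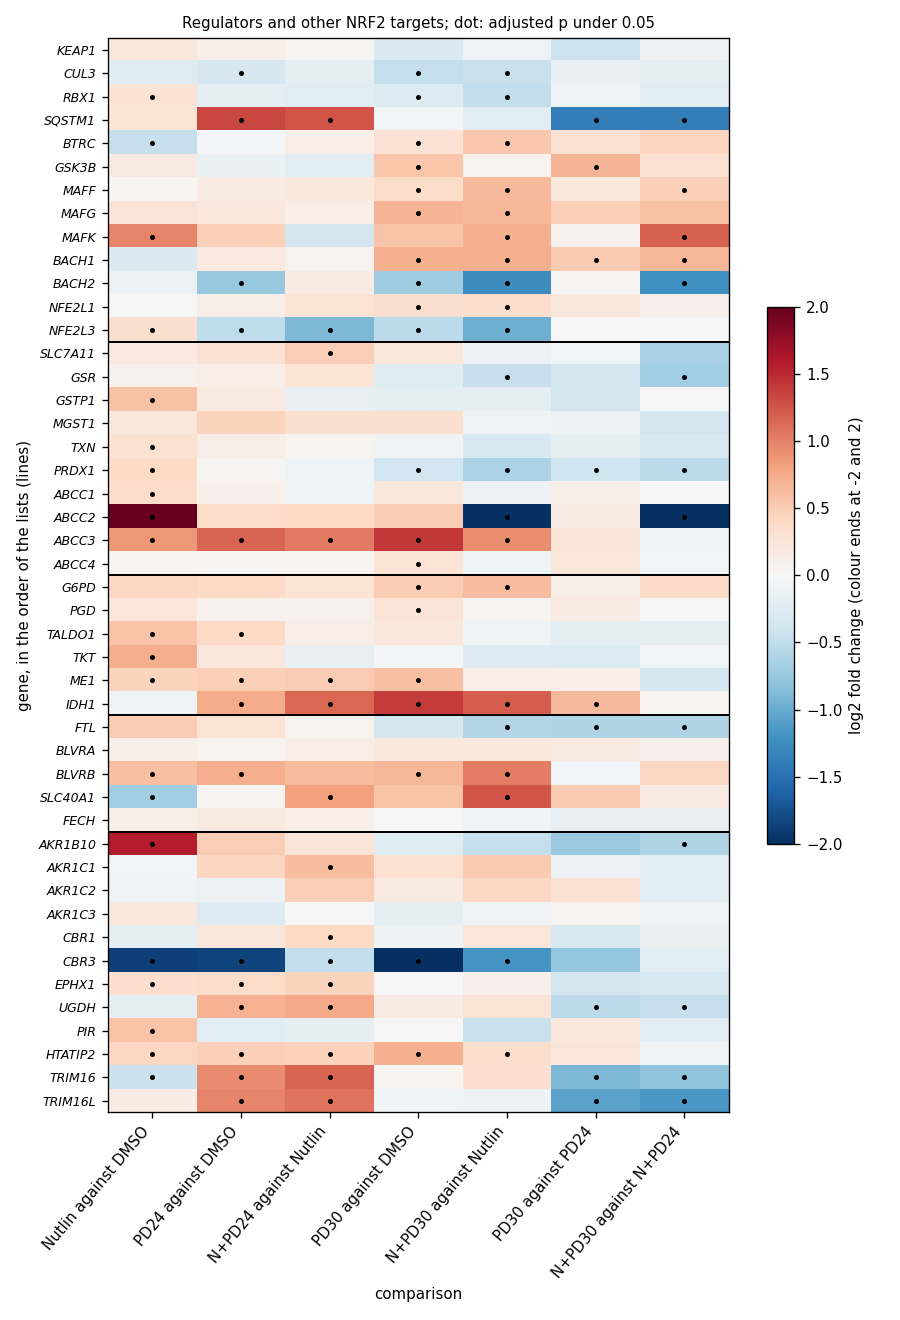
Log2 fold changes (colour, ending at -2 and 2) of 13 regulators and partners of NRF2 and 33 other NRF2 targets (rows, in list order with lines between lists) in 7 comparisons (columns), with a dot where the adjusted p is under 0.05. SQSTM1, TRIM16, TRIM16L and UGDH are red in both columns for removal of PD0332991 and blue in both columns that set continuous drug against removal.

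Antioxidant enzymes that were on no NRF2 list numbered 21. After removal 3 were called in PD24 (edgeR) and 3 in N+PD24 (limma), each of them higher, against 38.3% and 37% of all genes. Continuous drug gave 4 higher and 4 lower in PD30 and 4 higher and 2 lower in N+PD30, where 48.3% and 49% of all genes were called, and Nutlin gave 8 higher and 2 lower, where 54.6% were. PD30 against PD24 had 2 called, both lower, and N+PD30 against N+PD24 had 1 higher and 1 lower, against 25.2% and 34% of all genes. Counted in both directions, the share of this list was below that of all genes in each of these 7 comparisons. The 8 higher calls with Nutlin stood beside 26.6% of all genes called higher, a smaller share. The list's median there was 0.31, against 0.03 for all genes.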

How the data were processed

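RNA of SJSA-1 cells was sequenced in 18 libraries (6 groups of 3, from the labels). Single-end reads were aligned by the authors to hg19 using TopHat and Bowtie 2, and HTSeq 0.6.0 (reverse strand, exon features, union mode) gave counts for each symbol. They deposited raw counts for DMSO, Nutlin, PD24, PD30 and N+PD30. For N+PD24 the deposited columns hold signal instead, in which each library's counts had been scaled by a constant. As 100% of the values were whole multiples of 1 step (tolerance 0.01), whole reads were recovered. Further tables hold normalized base means and the authors' DESeq2 comparison of Nutlin with DMSO (fold changes and p-values), and were not used.

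CPM is relative to the library's own total. Counts were tested with edgeR 4.0.16 (R 4.3.3, quasi-likelihood, TMM, filterByExpr) for the groups compared. Comparisons with N+PD24 used limma 3.58.1 with a trend on log2(CPM + 1), for genes of at least 1 CPM in 3 libraries, which understates changes of low genes. Calls had a Benjamini-Hochberg adjusted p under 0.05 over all genes tested, and values with ± in tests are standard errors. Both fits were tested on simulated counts. DESeq2 1.42.0, other scalings, filters, pseudocounts, a replicate block, an added fold limit and leaving out each replicate were alternatives.

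Same-numbered samples deviated together in N+PD24 against Nutlin (correlations 0.678, 0.459 and 0.518) and in PD30 against PD24 (0.312, 0.585 and 0.308). Correlations were also positive in PD24 against DMSO (0.079, 0.168 and 0.607) and in N+PD30 against N+PD24 (0.047, 0.132 and 0.372). In the other comparisons of 2 groups replicate 1 gave a negative value. NQO1 ranked replicate 1 lowest and replicate 2 highest in each of the 6 groups. This was seen in the data and is not given by the labels. All main fits used group alone, so their p-values take no account of replicate number. The replicate block was an alternative run for every comparison. Named were all members, the 2 highest and 2 lowest called genes of the regulators and other targets in each comparison, the 3 genes most like each member, and the check genes of p53 activation and G1 arrest. Of these, 1 gene is not reported here. Members and lists were chosen with earlier results of these data known. The library kit's strandedness is not given in the sources used here, so overlapping genes are given for either strand. The other marker lists stayed low, with summed levels of at most 0.623 CPM (3 haematopoietic genes), 2.68 CPM (3 epithelial) and 15.4 CPM (3 endothelial, mostly VWF). Of the 23368 rows, 28 carry names turned into dates.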

Additional observations from a re-analysis of the deposited data

Results flagged for a closer look

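These 5 results stood out because the response to Nutlin differed between cells without and with PD0332991 by an interaction term over 12 libraries. For HMOX1 the response was higher by 0.86 on the log2 scale with continuous drug than without it (edgeR, adjusted p = 0.0154), and the adjusted p ranged from 0.00505 to 0.0489 over the alternatives. HMOX1 fell in mean level with Nutlin alone and was higher in N+PD30 than in PD30 in each of the 3 N+PD30 libraries.

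Among the other NRF2 genes, ABCC2 responded less to Nutlin with continuous drug (-2.55, edgeR, adjusted p = 8.79e-05). CBR3 differed by 1.49 with continuous drug (edgeR, adjusted p = 0.0156) and by 1.04 with the drug removed (limma, adjusted p = 0.00946). BACH2 differed by 0.87 with the drug removed (limma, adjusted p = 0.0351). Groups of 3 libraries are too small for a test of single outlying libraries, so none was made.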

How the results depend on the processing

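Limits first: every group has 3 libraries of 1 cell line, replicate 1 of N+PD30 is the shallowest, and N+PD24 was deposited on another scale than the groups it is compared with. No called change of a member reversed in any alternative.

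Requiring a log2 fold change of at least 1 as well left 0, 0, 3, 3, 3 and 1 members called in Nutlin and PD30 against DMSO, PD24 against DMSO, N+PD30 and N+PD24 against Nutlin, and PD30 against PD24, and 0 in the interaction with PD30, and 23 of 37 member calls were lost in all. The genes called were then 3277, 2305, 1898, 3510, 1125 and 1137 in these comparisons, 1146 in N+PD30 against N+PD24, and 1647 and 121 in the interactions with PD30 and PD24. With replicate block the members called were 5 in PD30 against DMSO and 1, HMOX1, in the interaction with PD24, where replicate 1 of Nutlin and of DMSO did not deviate together (correlation -0.274), and the genes called were 419 there, 8008 in N+PD24 against Nutlin and 6107 in PD30 against PD24. In the interaction with PD30, DESeq2, RLE size factors and total counts each called 2 members, HMOX1 and NFE2L2. EdgeR on recovered reads called 116 genes in the interaction with PD24, against 208. Scaling by total counts gave -0.0123 for TXNRD1 and -0.0114 for SRXN1 in Nutlin against DMSO and 0.00651 for SRXN1 in N+PD30 against Nutlin, and edgeR on recovered reads gave 0.0282 for GCLM in N+PD24 against Nutlin, none of them called, all of the opposite sign to the main value. With total counts the share of higher calls in Nutlin against DMSO was 36.7%, against 48.7%.

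Leaving out 1 library at a time gave ranges for the members called of 2 to 4 (Nutlin against DMSO), 3 to 5 (PD30 against DMSO), 6 each time (PD24 against DMSO), 5 to 6 (N+PD30 against Nutlin), 7 each time (N+PD24 against Nutlin), 5 to 6 (PD30 against PD24), 5 to 6 (N+PD30 against N+PD24), 1 to 2 (Nutlin by PD30 interaction), 0 each time (Nutlin by PD24 interaction). The genes called ranged over 7122 to 8661, 5898 to 7135, 3902 to 5850, 6147 to 7686, 3504 to 4744, 2178 to 4117, 2655 to 4482, 2264 to 3281, 98 to 191 in the same order. Values that took both signs, none of them called, were SRXN1 -0.00861 to 0.19 (Nutlin against DMSO), OSGIN1 -0.38 to 0.0972 (Nutlin against DMSO), NQO1 -0.12 to 0.17 (PD24 against DMSO), GCLM -0.13 to 0.0347 (PD24 against DMSO), TXNRD1 -0.13 to 0.00817 (N+PD30 against Nutlin), SRXN1 -0.11 to 0.0232 (N+PD30 against Nutlin), NQO1 -0.0632 to 0.28 (N+PD24 against Nutlin), GCLM -0.11 to 0.0774 (N+PD24 against Nutlin), FTH1 -0.20 to 0.000231 (PD30 against PD24), OSGIN1 -0.42 to 0.0106 (N+PD30 against N+PD24).

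The cause of these changes was not tested.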
